A study of Mus musculus with 262 samples.

Results

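The epithelial sodium channel and the genes of its hormonal control were followed through mouse kidney cells and tubules as a set of 10 genes taken by symbol: the channel subunit genes Scnn1a, Scnn1b and Scnn1g, the channel-activating protease gene Prss8, the ubiquitin ligase gene Nedd4l, the receptor genes Nr3c2 and Nr3c1, the enzyme gene Hsd11b2, and the hormone target genes Sgk1 and Tsc22d3. All 10 were found among the 47069 genes of the TPM tables (transcript levels corrected for length and set to 1 common sum per sample), the 24111 genes of the count table and the 29732 genes of the RPKM table.

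The series held 262 samples from kidneys of 2-month-old male mice. Most were single cells of C57BL/6 mice, sorted with the lectin DBA, an antibody to c-Kit, both together or the lectin PNA, captured on a microfluidic chip and typed by the authors as 74 principal, 87 type A intercalated, 23 type B intercalated, 19 proximal tubule and 32 non-epithelial cells. Bulk samples of sorted C57BL/6 cells comprised 2 sorted on c-Kit and 2 sorted on DBA, and the strain Atp6v1b1GFP gave 2 GFP-positive and 2 GFP-negative samples. Tubules dissected from C57BL/6 mice comprised 11 cortical collecting ducts, written CCD, and 8 thick ascending limbs of the cortex, written cTAL. By their sort labels, the principal cells came from sorts that used DBA (37 with DBA alone, 37 with both) and 17 of the 23 type B cells from the PNA sort, so cell types had passed different gates. The strain name joins Atp6v1b1, a proton pump subunit gene of intercalated cells, to GFP, and the labels do not say what drives the reporter. No mouse was treated with hormone or diet in these samples, and no label says that replicates came from separate animals, so p-values measure the spread between the samples as deposited.

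The epithelial sodium channel, ENaC, is the apical pore through which the aldosterone-sensitive distal nephron takes up sodium, and it is assembled from alpha, beta and gamma subunits. Aldosterone binds the mineralocorticoid receptor, which raises transcription of SGK1, and this kinase restrains the ubiquitin ligase NEDD4-2 that would otherwise remove the channel from the membrane. Glucocorticoids circulate in excess and bind the same receptor, and the enzyme 11-beta-hydroxysteroid dehydrogenase type 2 inactivates them in the cells that respond to aldosterone.

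Promoter windows from RefSeq (build GRCm38.p6, the 250 bases before an annotated transcript start) were read to show what the subunit genes that moved together, and the hormone target Sgk1, carry upstream. Of the 10 genes, 5 had windows in the table, 12 windows in all, and Scnn1a, Prss8, Nedd4l, Nr3c1 and Hsd11b2 had none. Scnn1g and Scnn1b are neighbours on chromosome 7 and are read from the same strand. Their first starts lie 130559 bases apart, with 96562 bases between the genes. The Scnn1g window, chr7:121734229-121734478 on the plus strand, had a GC content of 65.2% and 16 CpG sites, and the Scnn1b window, chr7:121864788-121865037 on the plus strand, had 60.8% and 7 CpG sites, against medians of 52.4% and 6 over all 32851 windows. Neither overlapped an annotated exon. Capitals mark GC boxes, GGGCGG read on either strand, which begin 98 and 67 bases before the Scnn1g start and 22 bases before the Scnn1b start. Of all windows, 32.7% hold at least 1.
Scnn1g: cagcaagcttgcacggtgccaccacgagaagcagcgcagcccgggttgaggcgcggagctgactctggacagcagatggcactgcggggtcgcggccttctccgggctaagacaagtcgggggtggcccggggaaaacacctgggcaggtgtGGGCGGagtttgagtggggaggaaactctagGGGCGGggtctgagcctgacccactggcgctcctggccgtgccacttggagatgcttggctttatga
Scnn1b: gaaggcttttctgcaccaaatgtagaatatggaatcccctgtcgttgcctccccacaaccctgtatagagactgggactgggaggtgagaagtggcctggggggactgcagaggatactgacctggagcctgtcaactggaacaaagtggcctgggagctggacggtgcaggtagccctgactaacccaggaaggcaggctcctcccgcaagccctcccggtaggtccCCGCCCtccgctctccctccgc

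Neither subunit window held a TATA box, spelled TATAAA and found on either strand in 12.4% of all windows. Neither held a CCAAT box, spelled by its name and found in 33.8%. The palindromic corticosteroid receptor element, searched on both strands as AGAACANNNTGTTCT, is made of a pair of facing AGAACA matches. That shorter match lay in 16.1% of all windows and in neither subunit window. The full element occurred in 3 of the 32851 windows (0.00913%), and 1 of the 3 was a window of Sgk1. Sgk1 has 6 windows in the table, and the other 5 lacked the full element. The window that held it, chr10:21993640-21993889 on the plus strand, overlapped no annotated exon and is printed because it held the full element. Capitals mark the letters fixed in the motif, at 21993701 to 21993715. The element begins 189 bases before the start that this window precedes and 965 bases before the last annotated Sgk1 start. A match describes the letters and does not show that a receptor was bound there.
Sgk1: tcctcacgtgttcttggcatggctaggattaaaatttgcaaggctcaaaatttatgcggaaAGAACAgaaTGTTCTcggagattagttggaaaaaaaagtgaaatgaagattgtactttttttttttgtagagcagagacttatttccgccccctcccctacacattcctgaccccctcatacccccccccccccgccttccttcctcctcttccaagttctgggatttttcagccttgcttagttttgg

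The labels of the samples were set against cell type markers. Aqp2, the apical water channel of principal cells, was detected in 74 of 74 principal cells. Slc4a1, the basolateral anion exchanger of type A cells, was detected in 77 of 87 type A cells, and Slc26a4, the apical exchanger of type B cells, in 23 of 23 type B cells. The authors' typing may have used these same transcripts, so these counts are no independent check of the types. The summed level of 5 principal cell markers ran from 21135 to 38055 TPM in the CCDs and from 41.0 to 205 TPM in the cTALs, and that of 5 thick ascending limb markers from 53.5 to 701 TPM in the CCDs and from 33613 to 53916 TPM in the cTALs. Principal cell transcripts were also found in other cells, with Aqp2 at 1 TPM or more in 58 of 87 type A, 14 of 19 proximal tubule and 15 of 32 non-epithelial cells, and in 3 of 23 type B cells. A cell had a median of 2704 to 3253 detected genes by type. Reads assigned to genes numbered 35530885 to 40815091 per GFP sample, and the depth of the other samples is unknown because TPM keeps none. No columns of a table repeated each other. Among the tubules, the CCD of column prefix m2 and the cTAL of prefix m3 stood apart in several of the 10 genes, and values without both are given below.

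CCDs were compared with cTALs to ask which of the 10 genes set the collecting duct apart from a segment upstream of it. The beta and gamma subunit genes and Hsd11b2 were the sharpest of the set. All 3 were abundant in every CCD and at most a few TPM in every cTAL, while Scnn1a, the alpha subunit gene, was present in both segments. Among the 10 genes, 8 were higher in CCDs, 1 (Nr3c1) was lower and 1 (Tsc22d3) did not pass the test. The test was limma on log2(TPM + 1) with Benjamini-Hochberg adjustment over all 13520 genes tested, at an adjusted p under 0.05, and it called 13.2% of those genes higher and 5.50% lower, 18.7% in all. The median log2 difference was 2.35 over the 10 genes and 0.31 over all genes tested, the latter falling to -0.03 after quantile normalization.

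**Figure D1:**
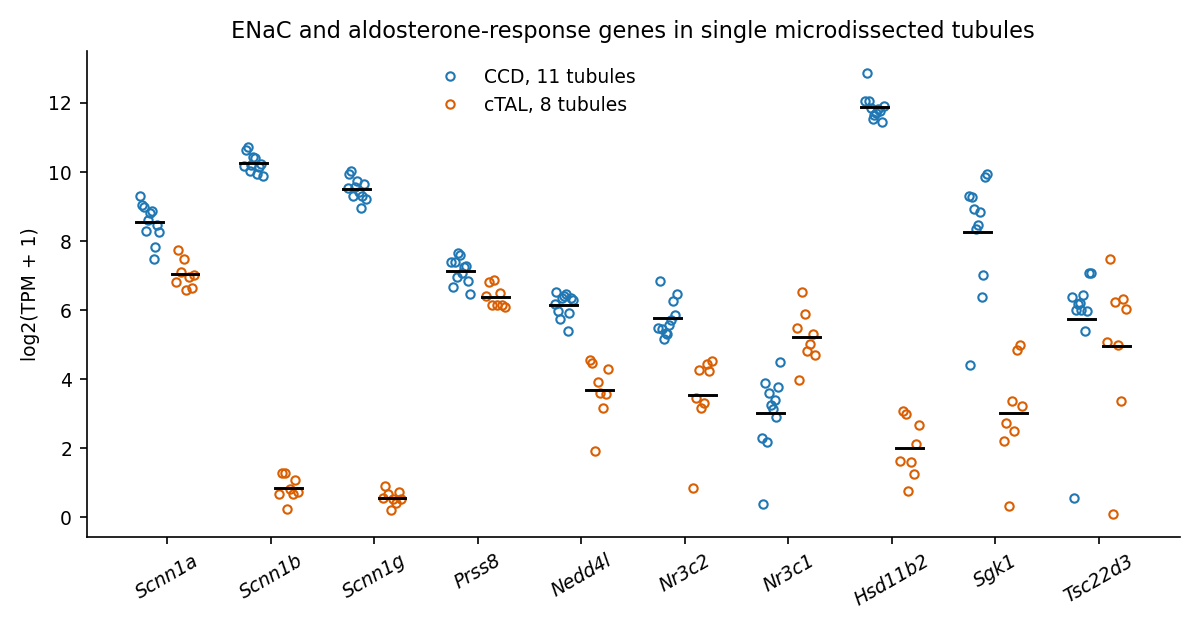
Level of the 10 genes in each single tubule as log2(TPM + 1), with 11 CCDs in blue and 8 cTALs in orange, each circle a tubule and each bar a group mean. Scnn1b, Scnn1g and Hsd11b2 separate the segments by a log2 difference of 8.94 or more, whereas Scnn1a and Prss8 overlap between them.

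Scnn1a ran from 179 to 637 TPM in the CCDs with a median of 389 TPM, and from 95.3 to 212 TPM in the cTALs with a median of 126 TPM. Its means were 396 ± 137 TPM (SD, n = 11) and 135 ± 40.3 TPM (SD, n = 8), a log2 difference of 1.50 (SE 0.22, limma adjusted p = 1.54e-05). The lowest CCD, of prefix m6, fell inside the cTAL range, so the groups overlapped. Scnn1b ran from 938 to 1680 TPM (median 1188) in the CCDs and from 0.18 to 1.45 TPM (median 0.715) in the cTALs. With means of 1243 ± 237 TPM (SD, n = 11) and 0.854 ± 0.447 TPM (SD, n = 8), its log2 difference of 9.41 (SE 0.18, limma adjusted p = 2.54e-20) was number 5 of all 13520 genes. Scnn1g ran from 498 to 1035 TPM (median 747) in the CCDs and from 0.17 to 0.86 TPM (median 0.465) in the cTALs. Its means of 748 ± 164 TPM (SD, n = 11) and 0.501 ± 0.209 TPM (SD, n = 8) gave a log2 difference of 8.94 (SE 0.19, limma adjusted p = 5.34e-20), number 10 of all genes. No CCD overlapped a cTAL in either of these genes.

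The subunit genes also differed in order between the segments. Per length, the order was Scnn1b over Scnn1g over Scnn1a in 11 of 11 CCDs, with a median ratio of Scnn1b to Scnn1a of 3.12 and a range of 1.81 to 5.54. In 8 of 8 cTALs Scnn1a was the highest of the 3, at a median of 169 times the level of Scnn1b. As a share of the CCD mean, the cTAL mean was 34.2% for Scnn1a, 0.0687% for Scnn1b and 0.0670% for Scnn1g. The same share was 0.125% for Aqp2, 0.240% for Fxyd4 and 0.0780% for Slc4a1, markers of principal and type A cells, so Scnn1b and Scnn1g fell to shares below that of Aqp2 and Scnn1a did not. Collecting duct markers varied in this share. It ran from 0.0991% (Aqp3) to 5.23% (Avpr2) among the principal cell markers. Among the markers shared by intercalated cells it ran from 0.0665% (Foxi1) to 25.5% (Atp6v1b1). In bulk tissue, fewer cells of a type and less RNA per cell cannot be told apart.

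Prss8 encodes prostasin, a membrane-anchored serine protease that promotes cleavage and activation of the channel. It ran from 87.8 to 199 TPM (median 150) in the CCDs and from 67.0 to 117 TPM (median 77.4) in the cTALs. The means were 145 ± 36.6 TPM (SD, n = 11) and 84.9 ± 19.8 TPM (SD, n = 8), a log2 difference of 0.75 (SE 0.19, limma adjusted p = 0.00541), and the groups overlapped. With tubules of the same prefix averaged, the difference was 0.67 and no longer passed (limma adjusted p = 0.0634). Nedd4l, the gene of NEDD4-2, ran from 40.7 to 91.9 TPM (median 77.1) in the CCDs and from 2.76 to 22.7 TPM (median 12.6) in the cTALs, with no overlap. Its log2 difference was 2.47 (SE 0.31, limma adjusted p = 1.74e-06).

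The receptors took opposite directions. Nr3c2, the mineralocorticoid receptor gene, ran from 34.7 to 113 TPM (median 46.4) in the CCDs and from 0.81 to 22.0 TPM (median 13.8) in the cTALs, without overlap. Means of 57.4 ± 24.8 TPM (SD, n = 11) and 13.3 ± 7.45 TPM (SD, n = 8) gave a log2 difference of 2.24 (SE 0.40, limma adjusted p = 0.000235). Nr3c1, the glucocorticoid receptor gene, ran from 0.31 to 21.8 TPM (median 8.48) in the CCDs and from 14.7 to 91.7 TPM (median 35.0) in the cTALs. It was the lower called gene of the set, at 9.03 ± 5.86 TPM (SD, n = 11) against 41.3 ± 24.1 TPM (SD, n = 8), and its log2 difference was -2.19 (SE 0.46, limma adjusted p = 0.00124). Without the outlying m2 CCD and m3 cTAL it was -1.73 (limma adjusted p = 0.000815). Nr3c2 exceeded Nr3c1 in 11 of 11 CCDs, by a median ratio of 5.47, and in 0 of 8 cTALs, where the median ratio was 0.390.

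Hsd11b2 was the highest of the 10 genes in the CCDs and number 19 of all 47069 genes by mean TPM. It ran from 2805 to 7497 TPM (median 3598) in the CCDs and from 0.69 to 7.38 TPM (median 2.73) in the cTALs. Means of 3901 ± 1284 TPM (SD, n = 11) and 3.66 ± 2.58 TPM (SD, n = 8) gave a log2 difference of 9.86 (SE 0.27, limma adjusted p = 3.66e-18), number 2 of all genes tested. Thus 5 of the 10 genes (Scnn1b, Scnn1g, Nedd4l, Nr3c2 and Hsd11b2) had CCDs that all lay above all cTALs, a separation found in 3.40% of the genes tested. None had all CCDs below all cTALs, where the share of genes tested was 2.11%, and both directions together made 5.51%.

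Sgk1 and Tsc22d3, the hormone target genes, varied widely. The coefficient of variation in the CCDs was 69.7% for Sgk1, 64.8% for Nr3c1 and 51.2% for Tsc22d3, and 43.1% or less for the other 7 genes. Sgk1, which encodes the aldosterone-induced kinase, ran from 20.3 to 977 TPM (median 463) in the CCDs and from 0.26 to 30.5 TPM (median 7.00) in the cTALs. Its means were 456 ± 318 TPM (SD, n = 11) and 11.3 ± 11.4 TPM (SD, n = 8), a log2 difference of 5.23 (SE 0.67, limma adjusted p = 2.49e-06). Only the m2 CCD, at 20.3 TPM, fell within the cTAL range. Tsc22d3, which encodes the glucocorticoid-induced leucine zipper protein GILZ, ran from 0.48 to 134 TPM (median 71.3) in the CCDs and from 0.06 to 177 TPM (median 49.0) in the cTALs. Its log2 difference of 0.80 (SE 0.84, limma adjusted p = 0.573) did not pass the test. Leaving out single tubules moved that difference between 0.11 and 1.32.

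Sgk1 differed less within pairs of CCDs that share a column-name prefix than within other pairs, which was not so in the cTALs. The column names carry prefixes m1 to m7 whose meaning is not stated, with 7 prefixes among the CCDs, 6 among the cTALs and 4 that hold a pair of CCDs. Sgk1 was 921 and 977 TPM in the CCDs of prefix m7, 625 and 491 TPM in those of m3, 329 and 351 TPM in those of m4, and 82.8 and 129 TPM in those of m6. Prefix m1 had 632 TPM, m5 had 463 TPM and m2 had 20.3 TPM. The median fold between CCDs of a shared prefix was 1.17 over 4 pairs, against 2.80 over the 51 other pairs. In the cTALs it was 4.79 over 2 pairs, against 3.26 over the 26 other pairs. Tsc22d3 had 1.14 and 1.72 by the same measure, with 134 and 134 TPM in the m7 CCDs and 0.48 TPM in the m2 CCD. Scnn1b had 1.23 and 1.21. These folds are descriptions, since the pairs share tubules and are not independent.

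**Figure D2:**
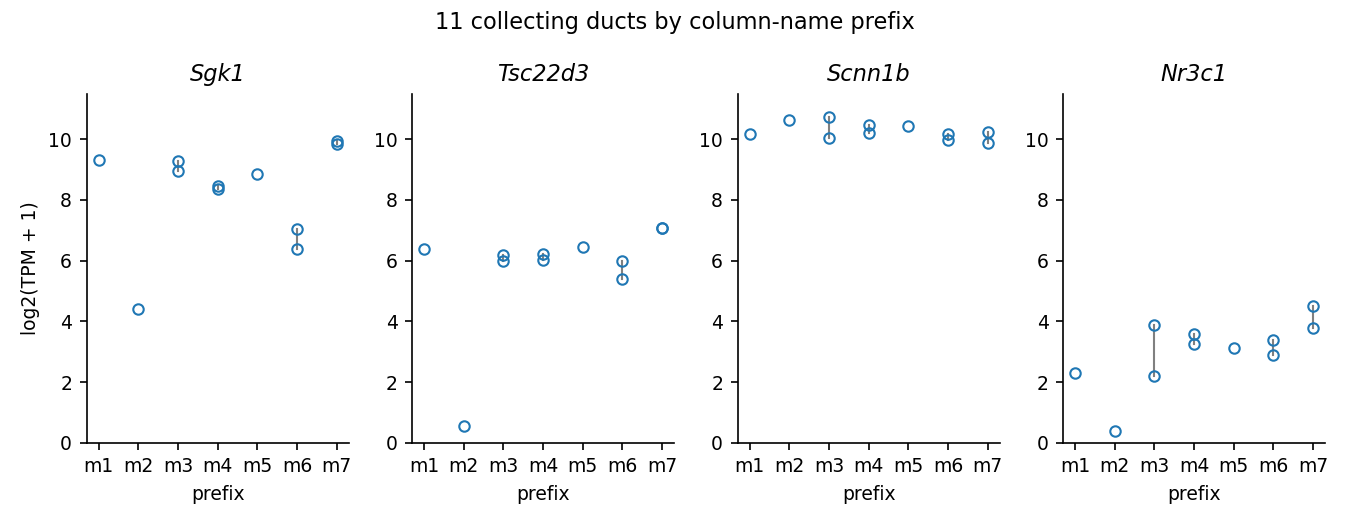
Sgk1, Tsc22d3, Scnn1b and Nr3c1 in the 11 CCDs as log2(TPM + 1) against the column-name prefix, with a line joining CCDs that share a prefix. Sgk1 ranges from 20.3 to 977 TPM with close values within a prefix, while Scnn1b ranges from 938 to 1680 TPM.

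The m2 CCD had the lowest Sgk1 (20.3 TPM), Tsc22d3 (0.48 TPM) and Nr3c1 (0.31 TPM) of the 11 and the highest Nr3c2 (113 TPM) and Hsd11b2 (7497 TPM). The m3 cTAL had the lowest Sgk1 (0.26 TPM), Tsc22d3 (0.06 TPM) and Nedd4l (2.76 TPM) of the 8 and the highest Nr3c1 (91.7 TPM). Without these 2 tubules, 8 of the 10 genes were still higher and 1 lower, and the log2 difference was 5.23 for Sgk1 and 0.63 for Tsc22d3 (limma adjusted p = 0.299). Whether RNA quality moved with them was not tested.

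Other genes of the pathway, 41 in all, were read beside the 10. Of the 39 tested in the tubules, 5 were higher in CCDs and 6 lower, with a median log2 difference of 0.16, beside 0.31 over all genes. The higher genes led with H6pd (1.50), which supplies the cofactor of the glucocorticoid-reactivating reductase, followed by the membrane protease genes Tmprss2 (1.26) and St14 (1.10) and the 14-3-3 gene Ywhab (0.66). The lower genes led with Klk1 (-5.60), a tissue kallikrein, and also included the phosphatase gene Dusp1 (-2.37) and the deubiquitinase gene Usp2 (-1.88). Klk1 belongs to a family of close copies, so its counts are uncertain. Among 7 further genes known to be induced by corticosteroids, a list that leaves out Sgk1 and Tsc22d3, 0 were higher in CCDs by limma, while 3 (Dusp1, Usp2 and Klf9) were lower, and these 3 were also the number at an unadjusted p under 0.05. Over all genes tested, 13.2% were higher and 5.50% lower. Marker sums of other cells ran from 85.4 to 535 TPM in CCDs and 22.0 to 640 TPM in cTALs for immune cells, and from 8.71 to 1216 TPM and 0.93 to 336 TPM for proximal tubule, and their part in the results was not tested.

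The GFP sort of Atp6v1b1GFP kidneys was compared next. GFP-positive cells carried more of all 3 channel subunit genes, Nedd4l, Nr3c2 and Hsd11b2, and less of Prss8, Nr3c1, Sgk1 and Tsc22d3. That made 6 of the 10 genes higher and 4 lower by edgeR's quasi-likelihood test on the deposited counts, with Benjamini-Hochberg adjustment over 15671 genes. Across all genes tested 15.2% were higher and 17.3% lower, 32.6% in all, with a median log2 difference of 0.02, against a median of 1.92 over the 10. GFP-positive and GFP-negative samples did not overlap in any of the 10 genes, 6 higher and 4 lower, a separation seen in 70.2% of all genes tested with 2 samples a group (35.8% higher, 34.4% lower).

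Scnn1a was at 494 and 457 CPM (reads set to a common library total) in the GFP-positive and 55.6 and 51.1 CPM in the GFP-negative samples, and its log2 difference was 3.16 (SE 0.18, edgeR adjusted p = 4.31e-05). Scnn1b was at 80.4 and 139 CPM against 6.04 and 7.02 CPM, a log2 difference of 4.07 (SE 0.30, edgeR adjusted p = 5.30e-05). Scnn1g was at 221 and 262 CPM against 26.7 and 18.7 CPM, a log2 difference of 3.41 (SE 0.23, edgeR adjusted p = 4.68e-05). The second GFP-positive sample had more Scnn1b and Scnn1g than the first but less Scnn1a. It also had more of the 5 principal cell markers, whose sums were 745 and 1341 CPM in the GFP-positive and 442 and 566 CPM in the GFP-negative samples. Of these 5 markers, 4 were higher in GFP-positive cells by edgeR, beside 15.2% of all genes tested. Aqp4 overlapped between the groups, at 353 and 510 against 281 and 417 CPM, and made up most of the GFP-negative sums. Aqp2 was at 155 and 317 CPM against 52.9 and 49.1 CPM.

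On the length-scaled RPKM values of the same samples, the order of the subunits in GFP-positive cells was Scnn1a over Scnn1g over Scnn1b. Scnn1a was at 155 and 121 RPKM, Scnn1g at 73.0 and 78.5 RPKM and Scnn1b at 39.4 and 46.2 RPKM. The ratio of the Scnn1a mean to the Scnn1b mean was 3.22 there, compared with 0.318 in CCDs, 0.343 in DBA and 0.631 in c-Kit samples. GFP-negative cells had the same order of subunits on the RPKM values, with a ratio of 4.63. These tables were normalized separately, so the ratios are set side by side without a test. RPKM and CPM were not in constant proportion from sample to sample. In the GFP-negative samples, Hsd11b2 was at 5.54 and 16.4 RPKM but at 28.1 and 22.7 CPM.

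Nedd4l was at 619 and 650 CPM in GFP-positive against 156 and 201 CPM in GFP-negative cells (log2 difference 1.83, SE 0.20, edgeR adjusted p = 0.000226), and Nr3c2 at 130 and 130 CPM against 34.6 and 29.9 CPM (2.01, SE 0.18, edgeR adjusted p = 9.43e-05). Hsd11b2 followed the subunits, at 158 and 261 CPM against 28.1 and 22.7 CPM (3.04, SE 0.27, edgeR adjusted p = 9.43e-05). Prss8 went the other way, at 65.8 and 72.7 CPM against 169 and 238 CPM (-1.55, SE 0.21, edgeR adjusted p = 0.000688). These 4 genes kept direction and call in each of the 11 alternatives run for this comparison.

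The remaining 3 genes were lower with calls that changed between settings. Tsc22d3 was at 8.65 and 13.2 CPM against 31.8 and 31.3 CPM (log2 difference -1.53, SE 0.27, edgeR adjusted p = 0.00296). Sgk1 was at 72.3 and 116 CPM against 155 and 163 CPM (-0.75, SE 0.23, edgeR adjusted p = 0.0348), and Nr3c1 at 112 and 108 CPM against 183 and 158 CPM (-0.63, SE 0.17, edgeR adjusted p = 0.0203). On the RPKM values none of these 3 passed (limma adjusted p = 0.239, 0.419 and 0.340 in that order). Sgk1 lost its call without GFP-negative replicate 2 or without GFP-positive replicate 1 (edgeR adjusted p = 0.0897 and 0.115), and Nr3c1 lost it when GFP-negative replicate 1 or GFP-positive replicate 2 was dropped (edgeR adjusted p = 0.133 and 0.0648).

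Markers of other segments moved with the sort. The 6 markers of the distal convoluted and connecting tubule summed to 6880 to 7201 CPM in GFP-positive and to 426 to 427 CPM in GFP-negative cells. All 6 were higher, beside 15.2% of all genes tested. Klk1 alone was at 3537 and 4273 CPM against 224 and 275 CPM. Its mean was 9255 TPM in cTALs and 226 TPM in CCDs, so it was not particular to that segment. Klk1 and Slc12a3 stand in both the marker list and the pathway list. Slc12a3, the thiazide-sensitive cotransporter of the distal convoluted tubule, was at 1273 and 712 CPM against 124 and 104 CPM. Proximal tubule markers summed to 2433 to 3711 CPM against 19527 to 20599 CPM and immune markers to 77.0 to 78.2 CPM against 390 to 782 CPM, both higher in GFP-negative cells. Thick ascending limb markers summed to 9878 to 14792 CPM against 8327 to 8638 CPM. Type A markers summed to 3585 to 8075 CPM against 50.6 to 89.6 CPM and type B markers to 1664 to 2367 CPM against 14.0 to 20.6 CPM. The part of each cell type in the differences of the 10 genes was not tested. Of 41 other pathway genes, 10 were higher and 9 lower, beside 15.2% and 17.3% of all genes tested. The higher genes led with Klk1 (3.97), Slc12a3 (3.12), St14 (2.05) and Zbtb16 (1.65), and the lower with Hsd11b1 (-3.38), Serpine2 (-3.11), Errfi1 (-2.32) and Kcnma1 (-1.39). Hsd11b1 encodes the reductase that regenerates active glucocorticoid, opposite in reaction to Hsd11b2.

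Cells sorted on c-Kit were compared with cells sorted on DBA, a lectin that binds principal cells. The DBA samples held more of 8 of the 10 genes, most of all Hsd11b2 and Scnn1g. Nedd4l was the exception, higher in c-Kit samples, and Nr3c2 did not pass. By limma on log2(TPM + 1) over 14341 genes, 16.1% of all genes were higher in c-Kit and 28.1% lower, 44.3% in all. The median log2 difference was -0.83 over the 10 genes and -0.11 over all genes, the latter 0.02 after quantile normalization. In 9 of the 10 genes the c-Kit and DBA samples did not overlap, 1 higher and 8 lower, against 73.9% of all genes (27.6% higher, 46.3% lower).

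Scnn1a was at 218 and 210 TPM in c-Kit and 318 and 314 TPM in DBA samples, a log2 difference of -0.56 (SE 0.06, limma adjusted p = 0.000394). Scnn1b was at 360 and 318 TPM against 939 and 906 TPM, a log2 difference of -1.44 (SE 0.07, limma adjusted p = 2.42e-05). Scnn1g was at 154 and 124 TPM against 706 and 625 TPM, a log2 difference of -2.26 (SE 0.11, limma adjusted p = 2.30e-05). In c-Kit samples Scnn1a exceeded Scnn1g in 2 of 2, and in DBA samples Scnn1g exceeded Scnn1a in 2 of 2. Hsd11b2 was at 423 and 301 TPM against 2474 and 2427 TPM, a log2 difference of -2.78 (SE 0.15, limma adjusted p = 2.85e-05).

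Prss8 (149 and 141 TPM against 212 and 196 TPM) had a log2 difference of -0.49 (SE 0.07, limma adjusted p = 0.00152). Sgk1 was at 173 and 139 TPM against 494 and 456 TPM, a log2 difference of -1.61 (SE 0.11, limma adjusted p = 7.02e-05), and Tsc22d3 at 85.8 and 88.9 TPM against 190 and 185 TPM, a difference of -1.09 (SE 0.06, limma adjusted p = 3.40e-05). Nr3c1 was at 25.8 and 23.2 TPM against 35.4 and 35.4 TPM (-0.52, SE 0.09, limma adjusted p = 0.00477). Without DBA replicate 1 or replicate 2 it no longer passed (limma adjusted p = 0.0612 and 0.0646).

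Nedd4l was at 82.8 and 86.1 TPM in c-Kit and 57.0 and 53.2 TPM in DBA samples (0.61, SE 0.07, limma adjusted p = 0.000822). Nr3c2 was at 56.6 and 46.8 TPM against 61.0 and 51.4 TPM, overlapping, and its difference of -0.12 (SE 0.12, limma adjusted p = 0.472) did not pass. Immune markers, which included Cd74 and Ptprc, summed to 12587 to 13130 TPM in DBA and 3805 to 4034 TPM in c-Kit samples, and principal cell markers to 19314 to 21750 TPM and 2099 to 2823 TPM. Type A markers summed to 61.1 to 73.1 TPM in DBA and 3059 to 3097 TPM in c-Kit samples. The part of these cell types in the differences of the 10 genes was not tested. Of 40 other pathway genes tested, 12 were higher in c-Kit samples and 7 lower, beside 16.1% and 28.1% of all genes tested. The higher genes led with Klk1 (2.75), Tmprss4 (1.47), St14 (1.27) and Spint1 (0.79). The lower genes led with the potassium channel gene Kcnj1 (-2.27), Dusp1 (-1.30), H6pd (-1.03) and the protease inhibitor gene Serpine2 (-0.85).

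**Figure D3:**
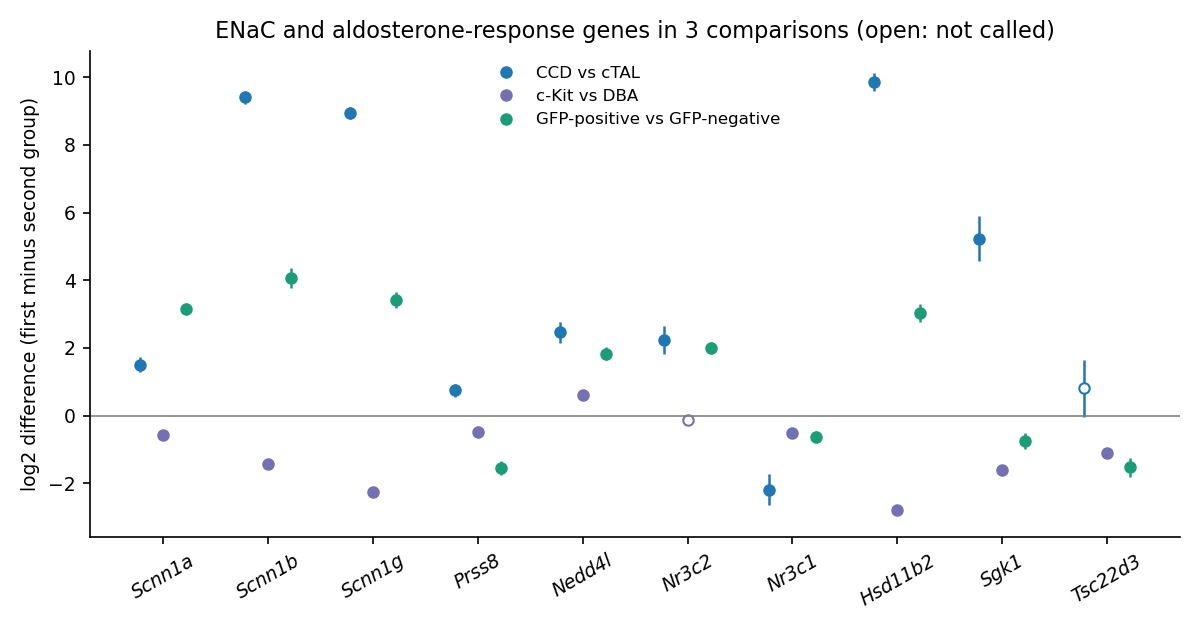
Log2 difference of each of the 10 genes, first group minus second, in CCD against cTAL tubules (blue), c-Kit against DBA samples (purple) and GFP-positive against GFP-negative samples (green), with bars of 1 SE and open circles for genes that did not pass. Nedd4l is above 0 in all 3 comparisons and Nr3c1 below 0 in all 3, while the 3 subunit genes and Hsd11b2 change sign between comparisons.

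Set side by side, the comparisons split the 10 genes into 6 patterns. Scnn1a, Scnn1b, Scnn1g and Hsd11b2 were higher in CCDs and in GFP-positive cells and lower in c-Kit than DBA samples. Prss8 and Sgk1 were higher in CCDs and lower in both GFP-positive and c-Kit samples. Nedd4l was higher in CCD, GFP-positive and c-Kit samples alike, and Nr3c2 in the first 2 of these. Nr3c1 was lower in all 3, and Tsc22d3 in GFP-positive and c-Kit samples. The 3 comparisons share no samples.

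In single cells, Scnn1b, Scnn1g and Hsd11b2 were highest in principal cells, and Scnn1a was found in type B as in principal cells. A cell type counts as 1 sample, because no animal is named for a cell, so the values are descriptions without a test, and intervals on shares cover counting error only. Detection means a level of 1 TPM or more. By mean TPM plus 1, 4 of the 10 genes (Scnn1b, Scnn1g, Hsd11b2 and Tsc22d3) were at least 4-fold higher in principal than in type A cells and 0 lower, beside 13.8% of 8225 genes higher and 8.74% lower. The same 4 were higher than in type B cells, beside 23.0% higher and 10.4% lower. Type A cells were at least 4-fold above type B cells in 2 of the 10, Scnn1g and Hsd11b2, beside 15.8% of genes higher and 9.34% lower. Individual cells moved these counts. Without the highest principal cell, Tsc22d3 was 3.55-fold above type B cells in place of 4.61-fold, and without the highest type B cell, Scnn1b was 59.2-fold higher in type A than type B cells in place of 1.90-fold.

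**Figure D4:**
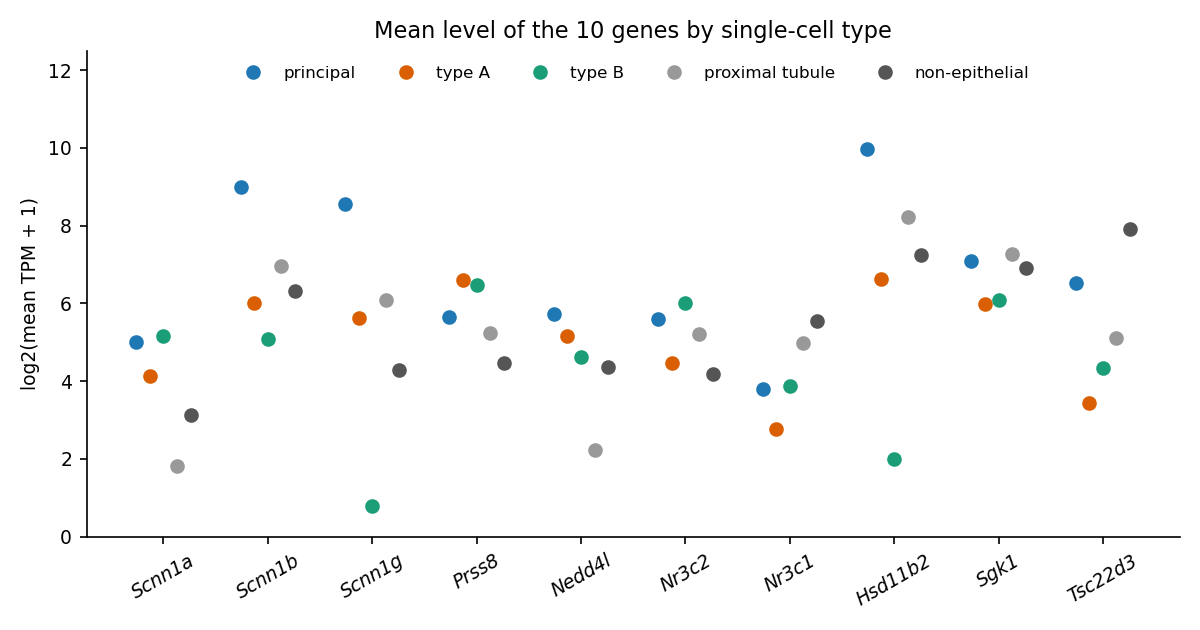
Mean level of the 10 genes in 5 single-cell types as log2(mean TPM + 1), each dot a cell type of 19 to 87 cells and without an error bar because a cell type is 1 sample. Principal cells stand highest for Scnn1b, Scnn1g and Hsd11b2, and non-epithelial cells for Tsc22d3 and Nr3c1.

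Scnn1b was detected in 71 of 74 principal cells (95.9%, exact 95% interval 88.6% to 99.2%), with a mean of 508 TPM, a median of 308 TPM and quartiles of 72.5 and 792 TPM. In type A cells it was detected in 55 of 87 (63.2%, 52.2% to 73.3%), but with a median of 2.60 TPM and a mean of 63.1 TPM. Among 23 type B cells 1 cell had it, at 752 TPM, and the mean of the type was 32.8 TPM. In proximal tubule cells Scnn1b was detected in 8 of 19 (42.1%, 20.3% to 66.5%), an interval that overlaps the one of type A cells. Principal cells were 7.94-fold above type A and 15.1-fold above type B cells by mean TPM plus 1, and 471-fold above type B cells without the type B cell at 752 TPM.

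Scnn1g was detected in 62 of 74 principal cells (83.8%, 73.4% to 91.3%), with a mean of 374 TPM and a median of 102 TPM. It was found in 16 of 87 type A cells (18.4%, 10.9% to 28.1%), below the 9 of 19 in proximal tubule cells, and in 2 of 23 type B cells. Its type A mean of 48.7 TPM included a cell at 3215 TPM, and its type B mean was 0.730 TPM. Principal cells were 7.55-fold above type A and 217-fold above type B cells. Without the cell at 3215 TPM, the fold over type A cells was 29.1.

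Scnn1a was not lowest in type B cells. It was detected in 19 of 23 type B cells (82.6%, 61.2% to 95.05%), 54 of 74 principal cells (73.0%, 61.4% to 82.6%) and 44 of 87 type A cells (50.6%, 39.6% to 61.5%), and in 3 of 19 proximal tubule cells (15.8%, 3.38% to 39.6%). Its medians were 19.8 TPM (type B), 7.82 TPM (principal) and 1.03 TPM (type A), and its means were 34.5, 31.1 and 16.5 TPM in that order. The intervals of type B and principal cells overlapped, as did those of principal and type A cells. In principal cells with both transcripts, Scnn1b exceeded Scnn1a in 49 of 53, by a median ratio of 30.7. The ratio of mean Scnn1a to mean Scnn1b was 0.0612 in principal, 0.261 in type A and 1.05 in type B cells. The type B value rested on the cell at 752 TPM of Scnn1b and was 421 without it.

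The subunits were also counted together in each cell. All 3 were detected in 47 of 74 principal cells (63.5%, 51.5% to 74.4%), in 9 of 87 type A cells (10.3%, 4.84% to 18.7%) and in 0 of 23 type B cells, which allows a share of up to 14.8% by the exact interval. Scnn1a without the other subunits was the state of 18 of 23 type B cells (78.3%, 56.3% to 92.5%), 13 of 87 type A cells (14.9%, 8.20% to 24.2%) and 0 of 74 principal cells. Scnn1b and Scnn1g without Scnn1a was seen in 14 principal cells. All 3 were also detected in 3 of 19 proximal tubule and 5 of 32 non-epithelial cells.

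Hsd11b2 was detected in 74 of 74 principal cells, with a mean of 1009 TPM, a median of 770 TPM and quartiles of 475 and 1236 TPM. Type A cells had it in 53 of 87 (60.9%, 49.9% to 71.2%) at a median of 1.31 TPM, type B cells in 3 of 23 (13.0%, 2.78% to 33.6%), and proximal tubule cells in 13 of 19 (68.4%, 43.4% to 87.4%). The type A share was below the proximal tubule share, with overlapping intervals, and the source of these detections was not tested. Its mean in principal cells was 10.3-fold above type A and 252-fold above type B cells. Without the highest type A cell, at 3859 TPM, the first was 18.4-fold, and without the highest type B cell, at 62.5 TPM, the second was 774-fold.

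**Figure D5:**
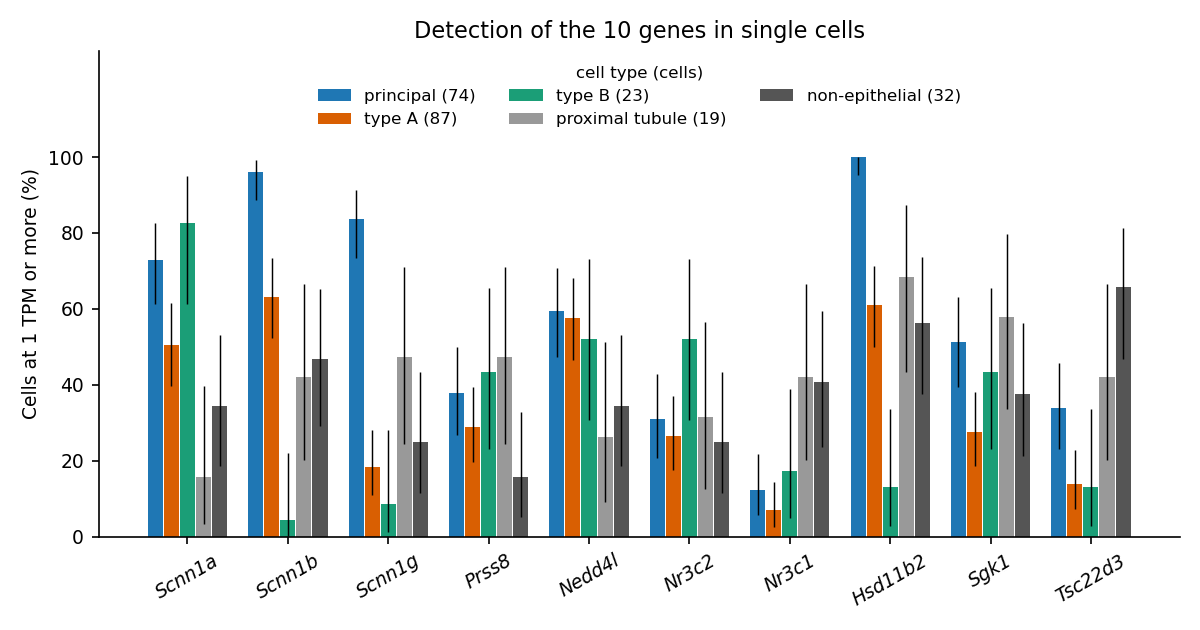
Share of cells in which each of the 10 genes was at 1 TPM or more, for 5 single-cell types, with exact 95% intervals for counting error only. Scnn1b, Scnn1g and Hsd11b2 fall to 4.35%, 8.70% and 13.0% in type B cells while Scnn1a stays at 82.6%.

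In proximal tubule, non-epithelial and type A cells, Scnn1b, Scnn1g and Hsd11b2 were detected in a larger share of cells with Aqp2 than without. For Scnn1b in type A cells the shares were 69.0% and 51.7%. Of the 14 proximal tubule cells with Aqp2, 8 had Scnn1b, 9 had Scnn1g and 12 had Hsd11b2, while the 5 cells without Aqp2 had 0, 0 and 1. Non-epithelial cells with Aqp2 had them in 11, 8 and 14 of 15, and those without in 4, 0 and 4 of 17. In runs of 10 type A columns by number, Aqp2 was detected in 0 to 6 cells of each run up to column 40 and in 9 or 10 of 10 from column 41 to 80, and Hsd11b2 in 1 to 7 and 5 to 10. By the same runs, Scnn1b was detected in 5 to 7 and 5 to 8 cells, and Scnn1g in 0 to 2 and 1 to 4. What the numbers stand for is not stated. Among type A cells with Aqp2, 40 of 58 had Scnn1b, 14 had Scnn1g and 47 had Hsd11b2, against 15, 2 and 6 of 29 without it. Of the 3 type B cells with Aqp2, 0 had Scnn1b, 1 had Scnn1g and 1 had Hsd11b2, against 1, 1 and 2 of the 20 without. For Scnn1a the type A counts were 31 of the 58 and 13 of the 29, and the type B counts 3 of 3 and 16 of 20. Scnn1a was in 3 of 14 proximal tubule cells with Aqp2 and 0 of 5 without. In non-epithelial cells it was in 7 of 15 with Aqp2 and 4 of 17 without. The part of principal cell RNA in these counts was not tested.

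Nr3c2 was detected in 12 of 23 type B cells (52.2%, 30.6% to 73.2%), 23 of 74 principal cells (31.1%, 20.8% to 42.9%) and 23 of 87 type A cells (26.4%, 17.6% to 37.0%), and its means were 62.9, 47.6 and 21.2 TPM. Without the highest cell of each type they were 27.4, 21.1 and 12.0 TPM. The 6 of 19 proximal tubule cells that had it (31.6%) lay within the range of the collecting duct types. Of the principal cells with Nr3c2, 23 of 23 also had Hsd11b2, which every principal cell had. Of the type B cells with Nr3c2, 10 of 12 lacked Hsd11b2, and of the type A cells 12 of 23 lacked it. Over all cells of these types, Hsd11b2 was detected in 13.0% of type B and 60.9% of type A cells. Nr3c1 had few detections in the collecting duct types, with 9 of 74 principal, 6 of 87 type A and 4 of 23 type B cells. It was found in 8 of 19 proximal tubule and 13 of 32 non-epithelial cells, where its mean was 46.0 TPM. Both receptors together were detected in 4 principal cells.

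Sgk1 was detected in 38 of 74 principal (51.4%), 24 of 87 type A (27.6%), 10 of 23 type B (43.5%), 11 of 19 proximal tubule (57.9%) and 12 of 32 non-epithelial cells (37.5%). Its means ran from 62.4 TPM in type A to 155 TPM in proximal tubule cells, with 136 TPM in principal cells. Within principal cells its spread was wide, from a lower quartile of 0.173 TPM to an upper quartile of 99.9 TPM and a highest cell at 2200 TPM. Tsc22d3 was highest in non-epithelial cells, with a mean of 239 TPM and detection in 21 of 32, followed by principal cells with 91.4 TPM and 25 of 74. It was 8.54-fold higher in principal than type A cells, in which the mean was 9.83 TPM and detection 12 of 87, and 13.4-fold higher without the highest type A cell.

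Prss8 and Nedd4l differed less between the collecting duct types, staying under 4-fold in each pair. The mean of Prss8 was 95.7 TPM for type A cells, 87.6 TPM for type B cells and 48.8 TPM for principal cells, with detection in 25 of 87, 10 of 23 and 28 of 74. Its medians were 0.24, 0.42 and 0.36 TPM in that order, and its means without the highest cell of each type were 82.1, 38.3 and 28.9 TPM. Without the highest type B cell alone, Prss8 was 1.27-fold higher in principal than type B cells by mean TPM plus 1. The mean of Nedd4l was 51.5 TPM for principal cells, 34.8 TPM for type A cells and 23.5 TPM for type B cells, with detection in 59.5%, 57.5% and 52.2% of cells. In proximal tubule cells Nedd4l was detected in 26.3% at a mean of 3.66 TPM. Of the 10 genes, 4 (Scnn1b, Scnn1g, Nedd4l and Hsd11b2) had their highest mean in principal cells.

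Genes whose level across all single cells was most like that of Scnn1a, Scnn1b, Scnn1g, Hsd11b2 or Nr3c2 were sought among the 3107 genes detected in at least 30% of principal cells, by Pearson's r of log2(TPM + 1), as a description over cells that share library preparation and depth. That limit keeps genes through the cell type in which Scnn1b, Scnn1g and Hsd11b2 were high. Scnn1b was most like Aqp2, Hsd11b2 and Fxyd4 (r = 0.65 for each), and Scnn1g most like Apela (0.68), Fxyd4 (0.68) and Hsd11b2 (0.67). Hsd11b2 was most like Fxyd4 (0.83), Aqp2 (0.83) and Apela (0.82). Scnn1a had other neighbours, Krt7 (0.45), Cldn7 (0.42) and Mal (0.42), which encode a keratin, a claudin and a membrane raft protein. The highest value for Nr3c2 was 0.26, with Sgms1. Within the 74 principal cells, where cell type no longer differs, r was 0.21 between Scnn1b and Scnn1g, 0.30 between Scnn1a and Scnn1b and 0.17 between Scnn1a and Scnn1g, weak values in sparse data.

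Among the other pathway genes, those most in favour of principal cells by mean TPM plus 1 were Kcnj1, the apical potassium channel ROMK, 24.8-fold above the higher intercalated type, then Serpine2, encoding protease nexin-1, which inhibits prostasin, 18.3-fold, and Mapkap1, a subunit of the kinase complex that activates SGK1, 3.28-fold. Serpine2 was detected in 1 of 74 principal cells, at 1299 TPM, and its ratio without that cell was 1.01. Mapkap1 was 2.12-fold without its highest principal cell. In the reverse direction, Klk1 was 97.1-fold, Hsd11b1 11.6-fold and Mlst8 6.46-fold higher in the higher intercalated type than in principal cells. Hsd11b1 was detected in 1 of 87 type A cells, at 932 TPM, and its ratio without that cell was 1.02. Mlst8 was 1.97-fold without its highest type A cell, at 675 TPM. The mean of Klk1 was 147 TPM for principal cells, 2318 TPM for type A cells and 14345 TPM for type B cells.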

How the data were processed

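The authors deposited TPM tables for single cells, tubules and both lectin and antibody sorts. For the GFP samples the authors deposited raw read counts per gene (HTSeq-count on RefSeq mm10, per the file headers and names) and RPKM values. The submitters' processing notes name STAR 2.5.1b, RSEM 1.2.31, Seurat and GRCm38.p5, without roles. Reads listed as assigned to no gene, 66.7% to 72.8% per GFP sample, stayed out of library sizes. The strand setting of the counting is not given in the sources here, so overlapping genes are uncertain. The number of deposited per-sample columns not used was 0.

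TPM values were tested with limma 3.58.1 on log2(TPM + 1) with a variance trend, keeping genes whose mean reached 1 TPM. Counts were tested with edgeR 4.0.16 (TMM, filterByExpr, quasi-likelihood F test) in R 4.3.3. Only the groups compared entered a fit, without covariates, and p-values were adjusted by Benjamini-Hochberg over all genes tested. Adding 1 to TPM understates differences of low genes. Single cells were summarised with Python 3.11.15 and scipy 1.17.1 (means, medians, Clopper-Pearson 95% intervals); all cells were kept with the authors' types, and no doublet caller was run because TPM are not molecule counts. Scripts were tested on simulated data. TPM columns of tubules and cells name a group only, so sort labels were not tied to single cells.

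The 10 genes, 41 other pathway genes and 46 markers were chosen with earlier results of these data known. Of the pathway genes, up to 4 called genes per direction with the largest difference are named per comparison, and for single cells the 3 largest ratios each way. The value of 1 pathway gene that this rule names is not reported here. Alternatives were DESeq2 1.42.0, other scalings, filters and pseudocounts (0.1 and 5), RPKM, sample weights, blocks, and leaving out samples. Those by tubule prefix, without the m2 CCD and m3 cTAL, with the RPKM experiment as a block, and single-cell ratios without the highest cell, were chosen after seeing the data. Replicate numbers of c-Kit and DBA samples did not deviate together (r = 0.03), and those of GFP samples did weakly (r = 0.17), with RPKM headers that name a first and a second experiment.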

Additional observations from a re-analysis of the deposited data

Results flagged for a closer look

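In the cTALs, Tsc22d3 had a single high tubule, at 177 TPM in the tubule of prefix m2, against a group median of 49.0 TPM. The gap to the next tubule was 0.553 of the range of the 8 tubules, above the limit of 0.526 for a group of that size. Chance alone marks about 1 in 20 groups in this way, and the cTALs were examined for all 10 genes. The CCDs were not examined by this rule, because the limits used do not reach a group of their size. Without this tubule the log2 difference of Tsc22d3 between CCDs and cTALs remained without a call.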

How the results depend on the processing

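Among the 10 genes, in the 3 replicated comparisons, every direction of a called gene held under every alternative run. Calls were lost only for Prss8, Nr3c1, Sgk1 and Tsc22d3, as given with their values above and here. Nr3c2, not called between c-Kit and DBA samples, changed sign there without c-Kit replicate 2 or without DBA replicate 1. For CCD against cTAL, 8 of the 10 genes stayed higher and 1 lower whichever tubule was left out, while all genes called ranged from 1530 to 2250 higher and 684 to 828 lower around 1782 and 744. Quantile normalization gave 1244 lower genes and sample weights gave 3391 higher. With tubules averaged per prefix, Prss8 (0.67, limma adjusted p = 0.0634) was not called. With the prefix as a replicate block, an alternative chosen after seeing the data, 8 of the 10 were higher and 1 lower, with 1774 genes higher and 814 lower. For c-Kit against DBA, leaving out a sample gave 1394 to 1969 higher and 2064 to 3732 lower genes, against 2315 and 4033, with 1456 and 2144 without DBA replicate 1 and the lowest counts without DBA replicate 2. The lone sample is then assumed to vary like the other group. The replicate block gave 2288 higher and 3983 lower. For GFP, leaving out a sample gave 1562 to 1992 higher genes against 2386, the lowest without GFP-positive replicate 1, and 3 of the 10 genes lower in each case. The RPKM values gave 744 higher and 895 lower genes, and 984 and 1173 with the experiment as a replicate block, and called 1 of the 10 genes lower in either case against 4. The replicate block on counts gave 2785 higher and 3112 lower and changed no call among the 10. The cause of these changes was not tested. Shares of cells with a gene were also taken with detection above 0 TPM and at least 10 TPM. In 56 of these 100 comparisons the share moved beyond its interval. Depth is known for the GFP samples only.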
